A study of Drosophila melanogaster with 10 samples.

Results

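The genes described here are 46 of the 16727 genes in a count table of Drosophila melanogaster larval brains, all less abundant in 12xWT brains than in yw brains. They were selected on the measured genotype difference, in counts per 1 M of each library's total (CPM). A gene was kept when its mean over the 4 yw libraries was at least 0.5 CPM and at least 3 times its mean over the 6 12xWT libraries, and when every yw library lay above every 12xWT library. Of 9259 genes with a yw mean of 0.5 CPM or more, 949 (10.2%) had every yw library above every 12xWT library, and 54 of those met the fold threshold. Of the 54, 8 were left out. Cyp6a2, Cyp4p1, Cyp4p2, Cyp4p3 and Cyp9h1 went because names starting Cyp, Cpr, Hsp or Obp were excluded. CG17470, Oseg5 and dtr, which start between 20642306 and 21361216 on 2L, went because a stretch of that arm was excluded by position. The same thresholds turned round, for genes higher in 12xWT, were met by 136 genes before any exclusion. Because the genotype difference chose the 46 genes, their genotype values are given as a description, without a test.

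PolyA RNA was sequenced from brains of wandering third-instar larvae, the last larval stage, with 25 brains in each library. The 12xWT larvae, with 12 wild-type repeats of the histone genes by label, gave 3 male and 3 female libraries. The yw larvae, with 200 by label, gave 2 male and 2 female libraries. Each repeat number comes from 1 genotype, so repeat number and stock background cannot be told apart. The labels do not describe the construct that carries the 12 repeats, and they do not say whether replicates came from separate cultures or crosses, so p-values measure only the spread between these libraries.

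Assigned counts summed to between 52.02 and 79.92 M per library. Where no count was seen, the true level could still be 0.0375 to 0.0577 CPM by library (3 counts), a limit that covers counting error only. All 46 genes passed the filter on low counts, as did 11146 genes in all. The brain label was checked on marker genes. The summed level of 4 neuronal markers (elav, nSyb, brp and Syt1) was 3207 to 3552 CPM in 12xWT libraries and 3638 to 3777 CPM in yw libraries, with 2 called lower in 12xWT (adjusted p under 0.05, edgeR's quasi-likelihood test). The neuroblast markers dpn, mira and ase summed to 337 to 412 CPM in 12xWT libraries and 387 to 422 CPM in yw libraries. All 3 were called lower in 12xWT, as were 16.4% of all genes tested. Their log2 differences, 12xWT over yw, were -0.26, -0.14 and -0.20 in that order. The 2 neuronal markers called, nSyb and brp, had -0.09 and -0.31. Markers of attached tissues varied more, and their part in the differences of the 46 genes was not tested. Fat body markers summed to 39.4 to 508 CPM in 12xWT libraries and 7.84 to 201 CPM in yw libraries, and ring gland markers to 220 to 486 CPM in 12xWT libraries and 77.4 to 215 CPM in yw libraries, with 5 of 6 ring gland markers called higher in 12xWT. In such bulk samples, fewer cells of a type and less RNA per cell cannot be told apart.

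Histone gene repeats supply the replication-dependent histones that package newly copied DNA. The series title names Polycomb, a group of proteins that keep genes silent by marking their histones. Many odorant, taste and reproductive genes of flies are known for transcription in a narrow set of adult cells and little in the larval brain.

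The 46 genes mostly held few counts. Their summed level was 102 to 129 CPM in 12xWT libraries and 442 to 494 CPM in yw libraries, and a single gene, CG10353, made up 74.1 and 234 CPM of the means in 12xWT and yw brains. The mean level of a member ran between 0.00584 and 74.1 CPM in 12xWT brains, with a median of 0.291 CPM, and between 0.516 and 234 CPM in yw brains, with a median of 2.23 CPM. Over all genes tested the median was 18.8 CPM in 12xWT brains and 18.5 CPM in yw brains. The ratio of the means, yw over 12xWT, was 10 or more in 16 members, between 5 and 10 in 10 and between 3 and 5 in 20, with a median of 5.86. In 19 members the 12xWT mean was under 0.2 CPM, and in 4 no 12xWT library held more than 5 counts. The coefficient of variation over the 4 yw libraries had a median of 13.8% and ran between 3.08% and 45.4%.

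**Figure D1:**
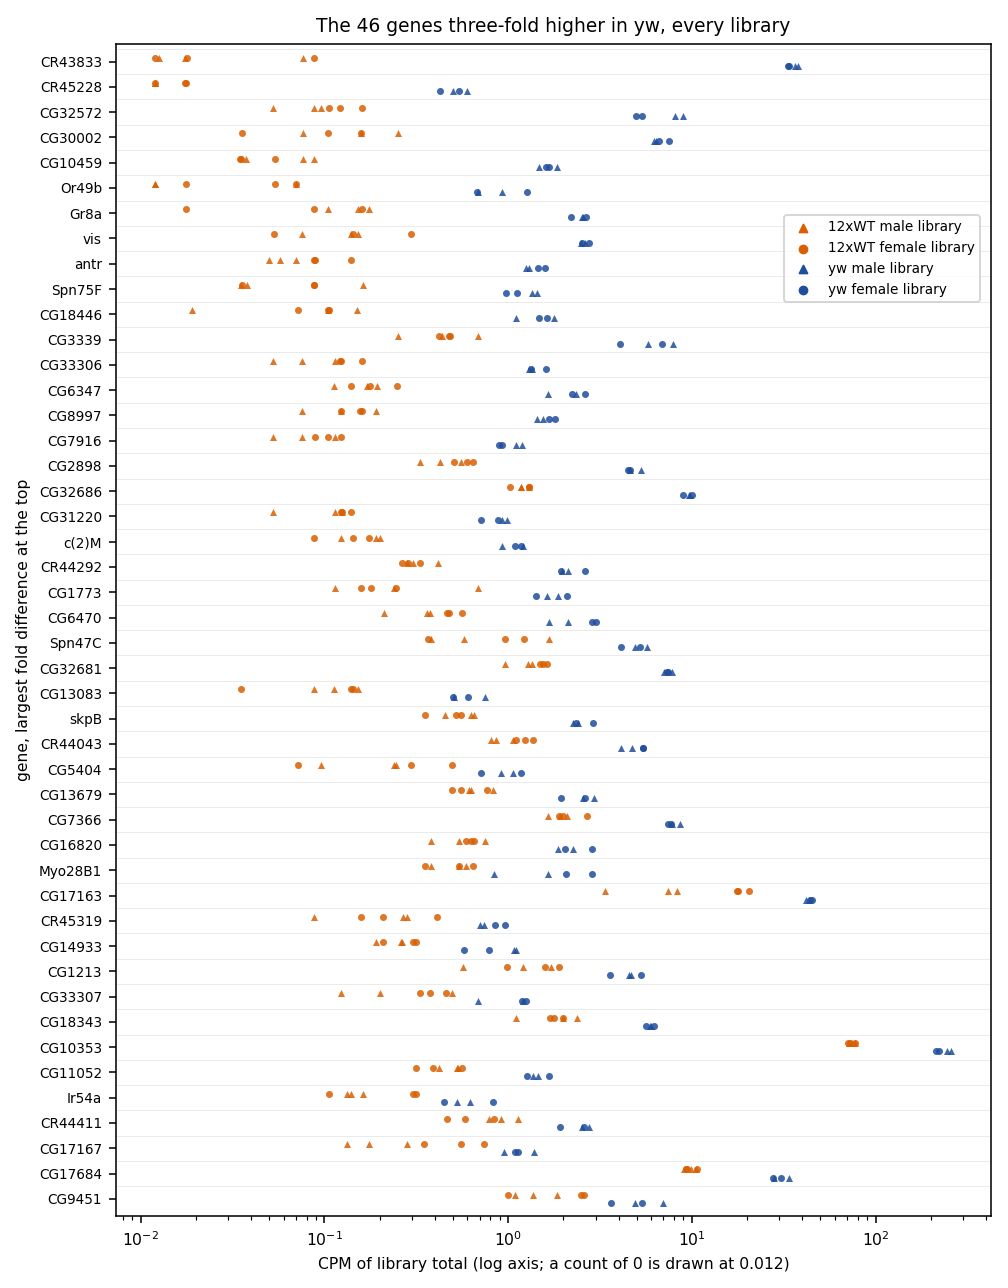
Level of each of the 46 genes in every library, as CPM of the library total on a log axis, with genes ordered by the ratio of the group means (largest at the top). Orange points are 12xWT libraries and blue points yw libraries (triangles, males; circles, females); the gap of about 3 orders of magnitude at CR43833 narrows to 3.00 times at CG9451, and no gene has overlapping groups because the choice required it.

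The gene with the largest ratio was CR43833, annotated as an antisense RNA on the plus strand of chromosome X (13755322 to 13756013, dm6). The 6 12xWT libraries ran between 0 and 0.0872 CPM with a median of 0.0177 CPM, while it had 37.6 and 36.5 CPM in yw males and 33.2 and 34.0 CPM in yw females. All 6 12xWT libraries together held 12 of its counts against 8030 in the 4 yw libraries. Every 12xWT library was therefore at or near the limit of detection, and every yw library was high and close to the others. The ratio of pooled levels, yw over 12xWT, was 1061 (95% interval by the exact binomial method 607 to 2055, counting error only). Per length it had 0.113 counts per kb of exon per 1 M counts (RPKM) in 12xWT and 113 RPKM in yw, where it was the highest of the members.

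CR43833 shares exonic bases with Pdcd4, a gene on the opposite strand named after a mammalian translation inhibitor. Pdcd4 averaged 651 ± 22.7 CPM in 12xWT brains (SD, n = 6) and 1381 ± 60.8 CPM in yw brains (SD, n = 4), a log2 difference of -1.11 ± 0.04 (SE), with an adjusted p of 8.25e-10 (quasi-likelihood test of edgeR, adjusted by Benjamini-Hochberg). The nearest tested gene to the left of CR43833 that overlaps no member, CR42861, 9845 bases away, was lower in 12xWT as well, at 4.67 ± 0.2003 CPM against 11.0 ± 0.881 CPM in yw (SD; log2 -1.26 ± 0.06, adjusted p = 2.72e-08, same test). On the right CG32625, 150 bases away, was higher in 12xWT, at 2.86 ± 0.724 CPM against 1.58 ± 0.847 CPM in yw (SD; log2 0.92 ± 0.16, adjusted p = 0.000904, same test). By default, reads that touch exons of both genes are assigned to neither, and because counting was without strand, reads of the opposite strand elsewhere in an exon cannot be told apart from a gene's own.

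Receptors of smell and taste were represented by Or49b, Gr8a and Ir54a, a member each of the odorant, gustatory and ionotropic receptor families. Gr8a, a taste receptor known from the sensing of L-canavanine, had 0.0176 to 0.175 CPM with a median of 0.129 CPM in 12xWT, and 2.57 and 2.54 CPM in yw males and 2.65 and 2.21 CPM in yw females. Or49b had 0 to 0.0700 CPM with a median of 0.0355 CPM in 12xWT, and 0.927 and 0.683 CPM in yw males and 0.673 and 1.26 CPM in yw females. Gr8a was even across yw libraries, while Or49b stood higher in 1 yw female library than in the other yw libraries. Ir54a came closer to overlap, with 0.314 CPM in the highest 12xWT library and 0.445 CPM in the lowest yw library. Other receptors of these families were called in both directions. Of 17 further odorant receptors tested, Or45a and Or67d were lower in 12xWT and 3 were higher, and of 19 further gustatory receptors Gr28b, Gr32a and Gr64f were lower and 3 were higher. Of 17 further ionotropic receptors 4 were called, each of them higher in 12xWT. These calls are at an adjusted p of 0.05 in edgeR's quasi-likelihood test, which called 16.4% of all genes tested lower in 12xWT and 17% higher. With library sizes left unscaled, 61.2% of all calls were on the higher side, against 50.8% in the scaled model.

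Proteases and their inhibitors made up a further group. CG30002 and CG1773 belong to the trypsin-like serine protease family, CG31220 to the CLIP-domain serine proteases, and CG6347 (now CtsL2) is a cysteine protease of the cathepsin L type. Spn47C and Spn75F are serpins, inhibitors that trap serine proteases, and CG14933 encodes a Kazal-type inhibitor. CG30002 had 0.0357 to 0.2502 CPM with a median of 0.131 CPM in 12xWT, and 6.26 and 6.37 CPM in yw males and 7.55 and 6.61 CPM in yw females, a ratio of means of 51.4. CG6347 averaged 0.174 ± 0.0469 CPM in 12xWT and 2.21 ± 0.402 CPM in yw (SD, n = 6 and 4), and Spn75F 0.0744 ± 0.05002 CPM in 12xWT and 1.22 ± 0.207 CPM in yw. Both had ratios above 10. Spn47C was more scattered in 12xWT, where its libraries ran between 0.366 and 1.66 CPM, below the 4.13 to 5.72 CPM of yw libraries. Of the 19 further serpins tested, 6 were called, each of them higher in 12xWT. Hemocyte markers, from blood cells that make several such proteins, summed to 89.0 to 113 CPM in 12xWT libraries and 78.4 to 103 CPM in yw libraries, overlapping ranges with 1 of 4 markers called higher in 12xWT. Pxn held most of that sum, with a mean of 82.1 CPM in 12xWT and 82.2 CPM in yw. The marker called was NimC1, at 1.04 CPM in 12xWT and 0.0579 CPM in yw. Means of Hml (14.5 CPM in 12xWT, 4.50 CPM in yw) and eater (2.38 and 0.720 CPM) were also higher in 12xWT, though neither was called. The part of hemocytes in the members' values was not tested.

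Genes known for roles in germ cells or reproduction were vis, antr and c(2)M, and skpB is described with them. The homeodomain factor vis acts with its neighbour achi in sperm development, antr belongs to the network that handles seminal sex peptide, c(2)M is a component of the synaptonemal complex between paired meiotic chromosomes, and skpB is related to the SKP1 adaptor of ubiquitin ligases. The vis gene had 0.0528 to 0.296 CPM with a median of 0.141 CPM in 12xWT, and 2.50 and 2.63 CPM in yw males and 2.54 and 2.74 CPM in yw females. Its yw libraries were thus nearly level across the sexes. The neighbour achi, 918 bases away, was called in the other direction, with 15.9 ± 0.430 CPM in 12xWT and 12.7 ± 1.22 CPM in yw (SD; log2 0.30 ± 0.05, adjusted p = 0.000567, edgeR's quasi-likelihood test). The pair are a duplication of near-identical copies, and reads of identical stretches may have been counted for neither, so both levels are uncertain. The antr gene had 0.05005 to 0.1395 CPM in 12xWT, and 1.29 and 1.25 CPM in yw males and 1.46 and 1.58 CPM in yw females. The c(2)M mean was 0.153 ± 0.0432 CPM in 12xWT and 1.1001 ± 0.124 CPM in yw, and the skpB mean 0.527 ± 0.111 CPM in 12xWT and 2.48 ± 0.288 CPM in yw (SD, n = 6 and 4). The broadly expressed relative skpA had 192.3 ± 13.1 CPM in 12xWT and 192.1 ± 19.4 CPM in yw. Of 5 testis markers, 2 passed the filter on low counts and 1, bam, was called, higher in 12xWT (4.04 CPM, against 1.53 CPM in yw). All 5 summed to 8.08 to 9.84 CPM in 12xWT libraries and 5.48 to 6.39 CPM in yw libraries, Mst84Db was at 0 in every library, and their part in these members' values was not tested.

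Motor and membrane proteins included CG3339, Myo28B1, CG10353 and CG1213. CG3339 encodes an axonemal dynein heavy chain, a motor of cilia, and had 0.2502 to 0.685 CPM with a median of 0.456 CPM in 12xWT, and 7.85 and 5.79 CPM in yw males and 6.88 and 4.08 CPM in yw females. It was spread widely within yw but far from 12xWT, with a ratio of means of 13.4. Of 6 further ciliary dynein heavy chains tested, 2 were called, both higher in 12xWT. Myo28B1, an unconventional myosin, had 0.352 to 0.642 CPM in 12xWT, and 0.839 and 1.66 CPM in yw males and 2.08 and 2.87 CPM in yw females, the largest scatter in yw of the 46 genes. CG10353, of the anoctamin family of ion channels and lipid scramblases, held the most counts of the members, at 14.7 RPKM in 12xWT and 46.5 RPKM in yw. It had 70.7 to 77.6 CPM with a median of 73.7 CPM in 12xWT, and 259 and 246 CPM in yw males and 220 and 213 CPM in yw females. Its relative subdued was called in the other direction, with 49.0 ± 1.16 CPM in 12xWT and 24.4 ± 0.427 CPM in yw (SD; log2 0.98 ± 0.03, adjusted p = 5.42e-10, same test). CG1213, of the sugar transporter family, averaged 1.32 ± 0.497 CPM in 12xWT and 4.52 ± 0.694 CPM in yw, and CG9451, an acid phosphatase by annotation, 1.73 ± 0.696 CPM in 12xWT and 5.198 ± 1.37 CPM in yw (SD, n = 6 and 4). These families were put together after the members were known.

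Among the other leading genes was CG32572 (chromosome X, 16721183 to 16726948), with 0.0525 to 0.1605 CPM and a median of 0.100 CPM in 12xWT, and 8.90 and 8.08 CPM in yw males and 5.36 and 4.95 CPM in yw females. The ratio of its means was 65.7, with every 12xWT library well below both sexes of yw. CG34325, which shares exonic bases with it on the opposite strand, was higher in 12xWT, at 18.7 ± 2.23 CPM against 12.9 ± 1.80 CPM in yw (SD; log2 0.52 ± 0.09, adjusted p = 0.00130, edgeR's quasi-likelihood test). CG18446, now named Lime and encoding a C2H2 zinc finger protein, had 0.0190 to 0.150 CPM in 12xWT, and 1.101 and 1.77 CPM in yw males and 1.48 and 1.62 CPM in yw females. CG17684 averaged 9.81 ± 0.658 CPM in 12xWT and 30.0 ± 2.80 CPM in yw (SD, n = 6 and 4). Of the 6 noncoding members, CR45228 had 2 counts in all 12xWT libraries together, against 117 in yw, where its levels were 0.594 and 0.504 CPM in males and 0.538 and 0.427 CPM in females. The ratio of its pooled levels was 92.8, with a 95% interval of 25.1 to 775. CR44043, CR44292, CR44411 and CR45319 had ratios between 3.12 and 6.92. CG16820, CG13083, CG11052 and CG5404, for which no role is given here, had means between 0.112 and 0.590 CPM in 12xWT and between 0.590 and 2.25 CPM in yw.

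By chromosome arm, 17 of the 46 members (37.0%) lay on 2R, which holds 20.3% of the genes tested. Chromosomes X and 2L had 10 members each (21.7%, against 16.9% and 17.7% of genes tested), 3R had 5 (10.9%, against 24.2%) and 3L had 4 (8.70%, against 19.9%). None was on chromosome 4 or Y. On 2R, 14 of the 17 lay between 9 and 14 Mb, a stretch chosen after the positions were seen, with 605 of the 2268 tested genes of that arm. These shares are counts and were not tested.

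Many members were neighbours. Joining members less than 50 kb apart gave 8 runs that together held 21 of the 46 members, and the same runs came out at 20 and at 100 kb. Each run was short, between 1.53 and 14.4 kb.

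A run of 4 members on 2L (13839262 to 13847799) held CG33307, CG33306, CG8997 and CG7916, all within the span of CenG1A, an Arf GTPase-activating protein gene. Their ratios were 3.28, 12.96, 11.7 and 11.0. CG33306 had 0.0525 to 0.1605 CPM in 12xWT, and 1.35 and 1.30 CPM in yw males and 1.61 and 1.335 CPM in yw females. The following genes, CG7953 and CG7968, stood under the 0.5 CPM minimum in yw and so could not be chosen. CG7953 averaged 0.110 ± 0.0222 CPM in 12xWT and 0.447 ± 0.0379 CPM in yw (SD; log2 -2.03 ± 0.22, adjusted p = 3.40e-05, edgeR's quasi-likelihood test), and CG7968 0.0447 ± 0.0246 CPM in 12xWT and 0.338 ± 0.173 CPM in yw (log2 -2.95 ± 0.43, adjusted p = 0.000336). Lower levels in 12xWT thus ran through 6 adjacent small genes. CenG1A itself differed by less, at 264 ± 9.31 CPM in 12xWT and 300 ± 7.02 CPM in yw (log2 -0.20 ± 0.03, adjusted p = 0.000972).

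The other run of 4 members lay on 2R (9704384 to 9710496) and held CG30002, CG1773, CG10459 and CR44292, with no other gene between them. CG10459 had 0.0349 to 0.0874 CPM with a median of 0.0455 CPM in 12xWT, and 1.47 and 1.84 CPM in yw males and 1.67 and 1.60 CPM in yw females, and so was separated by more than 10 times. CG1773 averaged 0.269 ± 0.208 CPM in 12xWT and 1.75 ± 0.287 CPM in yw (SD, n = 6 and 4), and CR44292 0.313 ± 0.0541 CPM in 12xWT and 2.17 ± 0.312 CPM in yw. CG10459 shares exonic bases with both of them. The next genes on either side were not called. On the left Uba1, the ubiquitin-activating enzyme, had 1090 ± 26.1 CPM in 12xWT and 1059 ± 31.9 CPM in yw (log2 0.02 ± 0.02, adjusted p = 0.575). On the right dap, a cyclin-dependent kinase inhibitor, had 113 ± 6.89 CPM in 12xWT and 120 ± 2.28 CPM in yw (log2 -0.10 ± 0.04, adjusted p = 0.0648, both from edgeR's quasi-likelihood test).

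On X (10371717 to 10381352) CG32686, CG2898 and CG32681 lay side by side. Their yw libraries were tight: CG32686 had 1.02 to 1.30 CPM in 12xWT, and 9.67 and 9.77 CPM in yw males and 10.03 and 8.99 CPM in yw females. CG2898 and CG32681 had ratios of 9.30 and 5.37. CG17841, whose span takes in this run, and Psf3, a subunit of the GINS replication complex to its right, were called higher in 12xWT by log2 0.51 ± 0.04 and 0.25 ± 0.04 (adjusted p = 1.44e-06 and 0.00152, edgeR's quasi-likelihood test). The neighbours of this run therefore differed in the other direction from its members.

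The runs of 2 members were mixed in what surrounded them. Or49b and antr on 2R (12842665 to 12848004) had Cyp9h1 106 bases to the left, which met the thresholds and was left out by name, at 0.999 ± 0.338 CPM in 12xWT and 3.66 ± 0.130 CPM in yw (SD; log2 -1.90 ± 0.19). To their right CG17574 was higher in 12xWT (log2 0.21 ± 0.04, adjusted p = 0.00141, edgeR's quasi-likelihood test). Spn47C and CR45228 on 2R (10938425 to 10947095) had polyph to the left, called lower in 12xWT at 0.0395 ± 0.0224 CPM against 0.258 ± 0.0737 CPM in yw (log2 -2.69 ± 0.39, adjusted p = 0.000299), 32861 bases off, and luna to the right, called higher (log2 0.22 ± 0.04, adjusted p = 0.00354). CG7366, with 2.04 ± 0.358 CPM in 12xWT and 7.88 ± 0.522 CPM in yw, and CG13679 stood side by side on 3L (8201078 to 8203345), between CG8005 (log2 -0.61 ± 0.05, adjusted p = 2.75e-06) and CG32364 (log2 -1.07 ± 0.26, adjusted p = 0.00853), both called lower in 12xWT. CG18343 and skpB on 2R (12138695 to 12140229) share exonic bases on opposite strands, as do CG17167 and CG17163 on X (23068301 to 23082709). To the left of CG17167 CG12061 was higher in 12xWT at 0.251 ± 0.0788 CPM against 0.0173 ± 0.0143 CPM in yw (log2 3.66 ± 0.52, adjusted p = 0.000283), and to the right CG17168 was lower (log2 -0.29 ± 0.03, adjusted p = 1.25e-05).

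**Figure D2:**
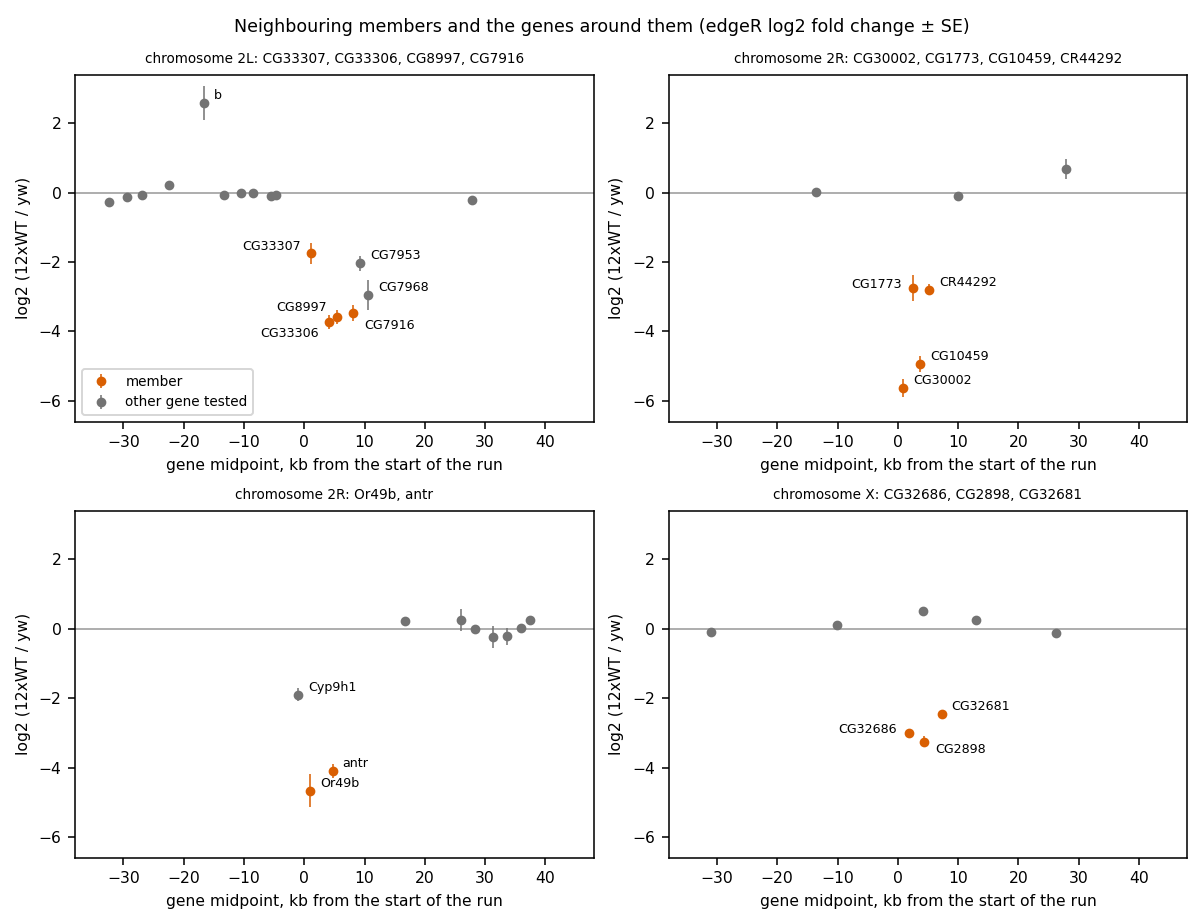
Log2 fold change, 12xWT over yw (edgeR, ± SE), of members (orange) and other tested genes (grey) by the distance of the gene's midpoint from the start of the run, in kb, at 4 of the 8 runs. Members lie between -1.75 and -5.62 while most genes around them lie near 0; CG7953, CG7968 and Cyp9h1 are low beside a run, and on the chromosome 2L panel b stands high, at 2.58.

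The nearest tested gene on each side of each member, not a member and sharing no exonic base with one, was then taken as a flanking gene. Sides were set by the order of gene starts. Genes whose span overlaps or encloses a member, such as CenG1A and CG17841, were therefore counted with a gap of 0, in place of the next gene outside. This gave 66 different flanking genes, with a median gap of 2945 bases. A flanking gene had to miss the rule or be excluded by name. In 12xWT 15 of the 66 were called lower (22.7%, against 16.4% of all genes tested) and 15 higher (22.7%, against 17%), with a median log2 of 0.03. Neither share was tested against that over all genes. Those lower by more than 2-fold were 6 of 66 (9.09%, against 1.53% of all genes tested), and those higher by more than 2-fold 3 of 66 (4.55%, against 5.42%). Of the 53 flanking genes within 10 kb, 14 (26.4%) were called lower and 10 (18.9%) higher. Among these 53, 5 (9.43%) were lower by more than 2-fold and 1 (1.89%) higher by more than 2-fold. Of the 16 flanking genes of runs, 8 (50%) were called lower and 5 (31.25%) higher, whereas of the 50 flanking genes of members outside runs 7 (14%) were called lower and 10 (20%) higher. The difference between these 2 sets was not tested. Beside members outside runs, CG6357 next to CG6347 was lower in 12xWT, at 53.8 ± 9.06 CPM against 121 ± 17.2 CPM in yw (SD; log2 -1.18 ± 0.10, adjusted p = 3.81e-05, edgeR's quasi-likelihood test).

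Sex labels were not used in the choice, but the rule limited sex differences. Every yw library of either sex had to lie above every library of the other genotype. A sex difference large enough to make the genotypes overlap kept a gene out. The genes tested in all were not chosen by this rule, and members mostly held few counts. Calls for sex, sex within yw and the interaction therefore cannot show whether members depend less on sex than other genes. Sex was tested in the same model as genotype. None of the 46 members was called for the sex effect by the quasi-likelihood test of edgeR, adjusted by Benjamini-Hochberg, where 1.68% of all genes tested were. At an unadjusted p under 0.05 there were 5 of the 46 members, beside 1141 of all genes tested (10.2%), a share near that background. DESeq2 called 1 member, CG6470, and the shares over all genes tested given here are from edgeR alone. CG6470 had the smallest adjusted p, 0.0879, with a log2 of male over female of -0.64 ± 0.16 (SE). It had 1.66 and 2.11 CPM in yw males and 2.85 and 3.01 CPM in yw females. With 2 libraries per sex, a gap between the sexes in yw carries little weight. CG6470 was not called within yw (adjusted p = 0.430, edgeR's quasi-likelihood test).

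Within yw, where most members are well detected, again none was called by edgeR, against 0.807% of all genes tested, with 5 members at an unadjusted p under 0.05, beside 962 of all genes tested (8.63%). DESeq2 called 2, CG10353 and CG32572, and its share over all genes tested is not given here. CG32572 had a log2 of yw male over yw female of 0.71 ± 0.16 (SE; adjusted p = 0.0728, edgeR's quasi-likelihood test), and it was the 1 member called by edgeR without 12xWT male replicate 3. CG10353 had a log2 of 0.21 ± 0.05 (adjusted p = 0.0783), and it was the 1 member called with no filter on low counts. Both genes are on X. Myo28B1 had a log2 of -0.98 ± 0.35 (adjusted p = 0.390).

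The median log2 of 12xWT over yw over the 46 members was -2.62 in males and -2.53 in females. The interaction of genotype and sex was called in none of the 46 members and in 0% of all genes tested by edgeR's quasi-likelihood test, and DESeq2 called none of the members. At an unadjusted p under 0.05 there were 4 of the 46 members, beside 456 of all genes tested (4.09%). The 4 were CG32572, CG17163, CG10353 and CG17167, all on X, which holds 10 of the 46 members. The share of X among the 456 genes was not counted. Over the 46 members the interaction log2 was negative in 32 and positive in 14. Its median was -0.139, against 0.0058 over all genes tested, a lean that was not tested. Within 12xWT the quasi-likelihood test called 0 members for sex, and 6 of all genes tested. There 6 members had an unadjusted p under 0.05 in that test, beside 692 of all genes tested (6.21%). The log2 of male over female was negative in 28 members and positive in 18. CG17163 had 7.44, 3.37 and 8.34 CPM in males of 12xWT and 20.5, 17.6 and 17.9 CPM in females of 12xWT. In yw it had 43.4 and 41.9 CPM in males and 43.9 and 45.2 CPM in females. The sexes were apart in 12xWT and level in yw, with a log2 difference of the genotype effects, male minus female, of -1.47 ± 0.41 (SE; unadjusted p = 0.00973, adjusted p = 0.9999). Without 12xWT male replicate 2, the lowest library, CG17163 was the 1 member called, with an adjusted p of 0.00346, and no other alternative called a member. CG17167, which overlaps it on the opposite strand, had 0.175, 0.133 and 0.2798 CPM in males of 12xWT and 0.739, 0.349 and 0.553 CPM in females of 12xWT. In yw it had 0.944 and 1.38 CPM in males and 1.13 and 1.09 CPM in females. In both genes 12xWT males were lowest and 12xWT females next, below every yw library. Since the pair share exonic bases and counting was without strand, they are not independent.

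**Figure D3:**
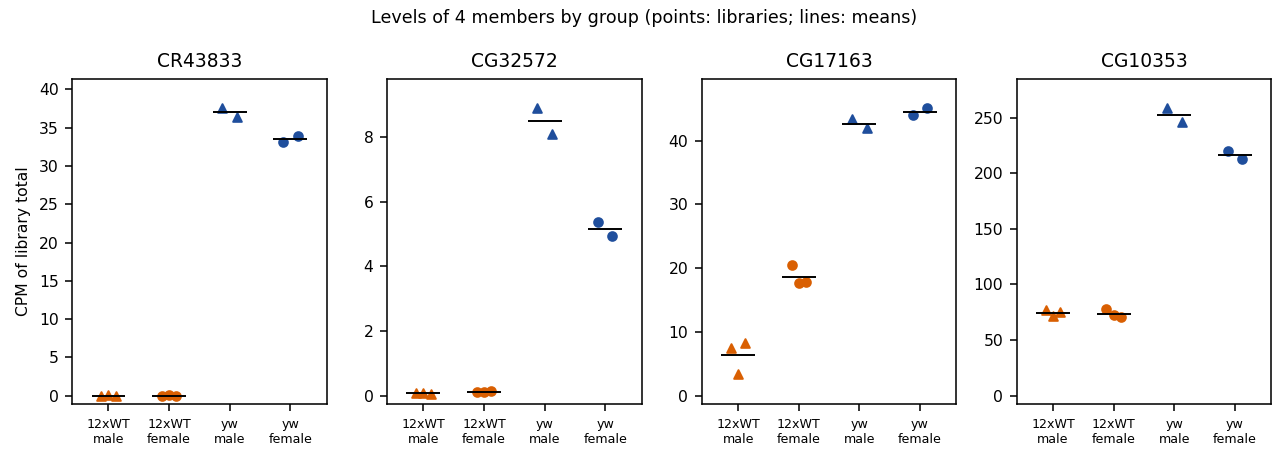
CPM of CR43833, CG32572, CG17163 and CG10353 in each library, by genotype and sex, with a line at each group's mean. CR43833 is at or near 0 in all 12xWT libraries, CG32572 and CG10353 are higher in yw males than in yw females, and CG17163 separates 12xWT males (3.37 to 8.34) and 12xWT females (17.6 to 20.5) while yw libraries lie at 41.9 to 45.2.

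**Figure D4:**
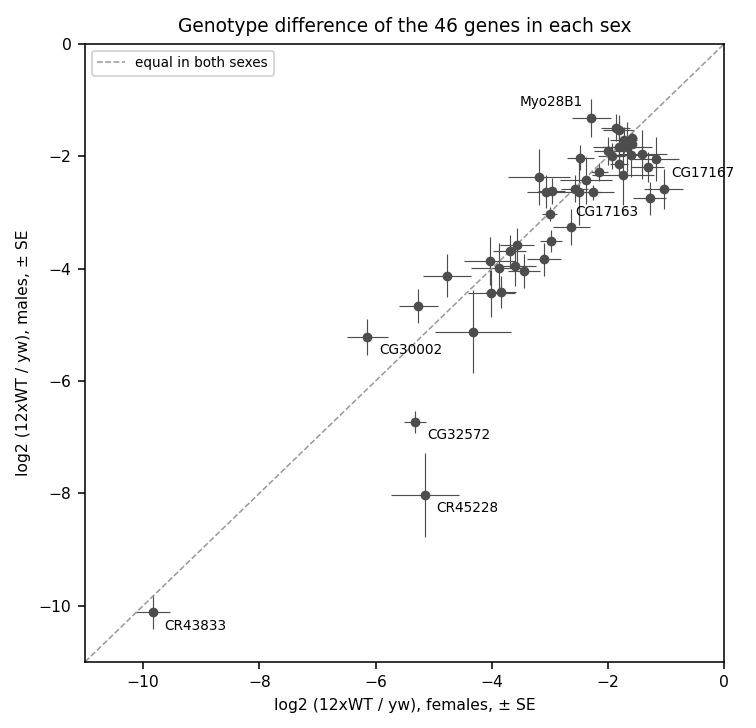
Log2 fold change, 12xWT over yw (edgeR, ± SE), of each of the 46 genes in males (vertical axis) and females (horizontal axis), with a dashed line where both are equal. Most genes lie along the line, with 32 on its lower side and 14 on its upper side. CG17163 (males -2.75, females -1.28), CG17167 and CG32572 lie below it, as does CR45228 (males -8.03, females -5.15), and Myo28B1 lies above it. The 12xWT males of CR45228 held 0 counts, so its value in males depends on the fit's prior count.

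Other features of the members were set beside those of all genes tested, without a test. Protein-coding genes were 40 of the 46 (87.0%, against 92.3%) and noncoding RNA genes 6 (13.04%, against 6.07%). The median exonic length was 1552 bases in members and 1958.5 in all genes tested. Genes listed in the count table by a CG or CR number were 36 of 46 (78.3%, against 50.1%). Exonic bases were shared with another gene in 17 members (37.0%, against 33.9%), on the opposite strand alone in 14. In several pairs the partner held many more counts and did not pass the test between the genotypes, as with Ir54a and sub, at 30.7 ± 1.77 CPM in 12xWT and 30.6 ± 1.20 CPM in yw (SD; log2 -0.02 ± 0.04, adjusted p = 0.766, edgeR's quasi-likelihood test), and c(2)M and CG5861, at 28.9 ± 0.993 CPM in 12xWT and 28.6 ± 1.45 CPM in yw (log2 -0.0036 ± 0.04, adjusted p = 0.954). Gr8a and CG12121 were alike in this, with CG12121 at 119 ± 1.99 CPM in 12xWT and 114 ± 2.04 CPM in yw (log2 0.05 ± 0.02, adjusted p = 0.105).

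A transposable element of the reference genome lay within 5 kb of 22 of the 46 members (47.8%, against 24.0% of all genes tested), and the median distance to the nearest was 5847.5 bases for members and 21392.5 bases for all genes tested. An element overlapping the span was a roo in CG18446, an S in CG17684, a 1360 in CG31220 and an INE-1 in CG30002, Spn47C and CR45319. Only 1 element was kept for each gene, so others may overlap as well. The span of CG17684 is 396036 bases long (2R, 1866080 to 2262115). All 4 members of the run on 2L had the same jockey element as the nearest. A single INE-1 was likewise nearest to CG30002, CG1773, CG10459 and CR44292, and another to CG18343 and skpB. The 22 members are therefore not 22 separate positions, and the genes tested were not matched to the members in level. These positions are those of the reference strain and do not show what either stock carries.

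At the edge of the fold threshold, the members just inside were CG9451 with a ratio of 3.00, CG17684 with 3.06 and CG17167 with 3.06. The genes just outside were CG12911 with 2.996, CG43117 with 2.98 and CG12344 with 2.85. The authors' deposited table of yw over 12xWT lists 45 of the 46 members. Their log2 fold changes lay between 1.61 and 10.07 with a median of 2.56, all positive. The member not listed is CR45228. That table rests on the same libraries, in which the members were chosen as higher in yw, so the positive signs follow from the choice.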

How the data were processed

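The authors' deposited table gives read counts per gene for 10 libraries on dm6, made with featureCounts 2.0.1 in paired-end mode without a strand option, per the file headers; STAR 2.7.7a is named in the submitters' processing notes, and the kit is stranded, per the labels' protocols. Reads over exons of more than 1 gene are by default assigned to neither. A second deposited table gives the authors' mean normalized count (a signal value), log2 fold change and p-value per gene, per the file headers. Column names gave the sample of each count column, and 0 were left unmatched.

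CPM used library totals. In R 4.3.3, edgeR 4.0.16 filtered genes with filterByExpr over 4 groups (11146 kept), scaled by TMM (factors 0.985 to 1.02; common coefficient of variation 8.76%) and ran the robust quasi-likelihood test on genotype and sex, or on 4 group means for sex within yw and the interaction, with Benjamini-Hochberg adjustment over all genes tested at 0.05. SE is the size of the log2 fold change over the square root of F. The tests were tried on simulated data first. DESeq2 1.42.0, other scalings, filters and left-out libraries were alternatives. Positions come from the count table, and biotypes and elements from an Ensembl annotation of the same build, matched by name for all 46 members; no DNA sequence was used here.

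The members and gene lists were chosen with earlier results of these data known. Genes named are the 10 members with the largest fold decrease, the 10 with the highest yw mean, every member within 50 kb of another, those called for sex, those nearest the threshold and those with a role in a listed family; CG6470, CG14933, CG31220, CG6347, CG1213, CR44043, CR44411, CR45319, CG16820, CG13083, CG11052 and CG5404 were added after their values were seen.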

Additional observations from a re-analysis of the deposited data

Results flagged for a closer look

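In 4 of the 92 groups checked, 6 12xWT or 4 yw libraries for each of the 46 genes, the highest or lowest library stood apart from the rest by Dixon's criterion at the 95% level. Chance gives such a gap in about 1 in 20 groups. CG1773 had 0.682 CPM in 12xWT male replicate 3, above the 0.114 to 0.244 CPM of the other 12xWT libraries. CG31220 had 0.0525 CPM in the same library, below the 0.114 to 0.140 CPM of the others. CG33307 had 0.683 CPM in yw male replicate 2, below the 1.19 to 1.25 CPM of the other yw libraries, and CG33306, its neighbour in the run on 2L, had 1.61 CPM in yw female replicate 1, above the 1.30 to 1.35 CPM of the others.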

How the results depend on the processing

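The thresholds set the size of the list: 92 genes met the rule at 2-fold and 29 at 4-fold, and those 29 were all among the 46. It held 38 genes at a yw minimum of 1 CPM, 48 on TMM or size-factor scaling, 49 with overlapping libraries allowed, and 44 to 48 with 1 library left out. Applied to males alone the rule gave 49 genes, 43 of them members, and to females alone 43, 37 of them members. The direction of the members' log2 differences is fixed by their choice. Among 690 values under the alternatives, only that of Or49b moved by over 1.5 times (-4.66, and -5.33 with the replicate number as a block). Same-numbered libraries did not deviate together from their group means (correlations -0.171 to 0.104). Pairs with other numbers ran between -0.317 and 0.417, the highest for 12xWT female replicate 1 with 12xWT male replicate 3. In groups of 2 or 3 libraries the deviations depend on each other, so these correlations cannot settle whether libraries were paired. The replicate block gave 2577 genotype calls over all genes, against 3722 without it, 13 flanking genes lower in 12xWT, and 0 members for sex, sex within yw or the interaction. Leaving out 1 library gave 2686 to 3635 genotype calls, 13 to 17 flanking genes lower, 0 members for sex, 0 to 1 within yw (1 without 12xWT male replicate 3) and 0 to 1 for the interaction (1 without 12xWT male replicate 2). DESeq2 called 1 member for sex and 2 within yw, and 1 was called within yw with no filter on low counts. The cause was not tested. No share over all genes tested is given beside the member calls under these alternatives. Levels under about 0.05 CPM rest on 3 counts or fewer. Promoter motifs were planned and not run.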
